A study of Mus musculus with 51 samples.

Results

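The 35 genes described here are the enzymes of glycolysis together with genes known as targets of the hypoxia-inducible factors (HIFs). They comprise 16 glycolytic enzymes, 5 genes of transport and flux control, 13 other HIF targets and Hif1a itself, out of 18193 gene symbols with a probe set of their own on the array. They were chosen by name, with earlier results of these data known, so the shares of members called are descriptive. They were matched through the platform annotation, and the brightest probe set stood for a gene in each cell type. Of the 35, 32 had a probe set of their own. Gpi1 and Eno1 were not matched and are not analysed here, and Gapdh was followed only through the array's control probe sets. A filter on dim probe sets left 31 members for testing in primary fibroblasts, where Car9 fell below it, 32 in SV40-transformed fibroblasts and 32 in MIN6 cells.

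Glycolysis turns glucose into pyruvate in the cytosol. Lactate dehydrogenase (Ldha) then turns pyruvate into lactate, which the transporter MCT4 (Slc16a3) carries out of the cell. HIF is a pair of proteins whose alpha subunit (Hif1a) is marked for breakdown by prolyl hydroxylases (Egln1, Egln3) while oxygen is present. When oxygen is low, HIF binds short DNA motifs near its target genes, among them many glycolytic enzymes, the glucose transporter Slc2a1 and pyruvate dehydrogenase kinase Pdk1. Beta cells of the pancreas are known to hold lactate dehydrogenase and lactate transporters low, since they couple glucose breakdown to insulin release. HMGN proteins are small non-histone proteins that bind nucleosomes.

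RNA of 51 samples in 17 groups of 3 was measured on Affymetrix mouse genome arrays, to ask how loss or excess of HMGN variants changes transcription. Primary mouse embryonic fibroblasts (MEFs) of strain C57BL/6 came as HMGN1, HMGN3 and HMGN5 knock outs, each with its own wild type group. SV40-transformed MEFs from ATCC carried an empty vector or a construct labelled HMGN1, HMGN2, HMGN3a, HMGN5, HMGN5SE, HMGN1_N2swap or HMGN1_N3swap, and MIN6 cells, a mouse beta cell line, carried an empty vector, HMGN1 or HMGN3a. Constructs were delivered by retrovirus and the cells were selected with puromycin and kept as pools, not clones. The labels do not say what SE, N2swap and N3swap change in the protein, nor that the 3 arrays of a group came from separate cultures or animals, so the p-values measure the spread between these arrays, which may be technical. Values are log2 of the deposited intensities. Cell types were processed apart, so levels are compared only within a cell type. In bulk RNA, fewer cells of a type and less RNA per cell cannot be told apart.

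The labels were checked against the arrays. The Hmgn1 probe set was at 10.59 ± 0.04 (SD, n = 3) in the HMGN1 knock out against 11.26 ± 0.07 in its wild type, and Hmgn3 was at 6.25 ± 0.02 in the HMGN3 knock out against 7.54 ± 0.06. Hmgn5 went against its label, at 5.69 ± 0.14 in the arrays labelled HMGN5 knock out and 4.97 ± 0.22 in their wild type. In SV40 MEFs the pool labelled HMGN1 had Hmgn1 at 12.25 ± 0.07 against 12.26 ± 0.06 with the vector, and the pool labelled HMGN5 had Hmgn5 at 7.62 ± 0.02 against 8.55 ± 0.13. Whether these probe sets lie in the deleted or introduced sequence was not analysed here. Hmgn levels of the other construct pools, HMGN2 in SV40 MEFs and HMGN3a in MIN6 among them, are not given here. Fibroblast markers lay above the filter level for 10 of 10 genes in primary MEFs and 9 of 10 in SV40 MEFs, where Lum did not, and beta cell markers for 7 of 7 in MIN6. The Y-linked signal, scaled from 0 to 1, was 0.741, 0.006 and 0.413 on the HMGN1 knock out arrays, 0.003 to 0.008 in their wild type, and 0.727 to 0.875 and 0.858 to 0.895 in the HMGN3 and HMGN5 wild types.

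The promoter sequences printed here belong to 5 members on which the results turn: Bnip3 and Slc16a3, which rose in SV40 pools, Pfkp, which fell there, and Higd1a and Ldha, which fell in the MIN6 HMGN3a pool. Each run is the 250 bases just before a RefSeq transcription start (GRCm38.p6), 5′ to 3′ on the gene's strand. Capitals mark every ACGTG or GCGTG on either strand, the core letters of the HIF motif. The runs are Bnip3 at chr7:138909507-138909756 (minus strand), Slc16a3 at chr11:120948817-120949066 (plus), Pfkp at chr13:6648772-6649021 (minus), Higd1a at chr9:121857797-121858046 (minus) and Ldha at chr7:46845554-46845803 (plus).
Bnip3: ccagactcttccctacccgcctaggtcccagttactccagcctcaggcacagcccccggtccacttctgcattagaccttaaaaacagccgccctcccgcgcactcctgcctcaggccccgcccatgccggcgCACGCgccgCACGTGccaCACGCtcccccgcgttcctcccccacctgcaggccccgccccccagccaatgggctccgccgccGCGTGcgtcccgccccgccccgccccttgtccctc
Slc16a3: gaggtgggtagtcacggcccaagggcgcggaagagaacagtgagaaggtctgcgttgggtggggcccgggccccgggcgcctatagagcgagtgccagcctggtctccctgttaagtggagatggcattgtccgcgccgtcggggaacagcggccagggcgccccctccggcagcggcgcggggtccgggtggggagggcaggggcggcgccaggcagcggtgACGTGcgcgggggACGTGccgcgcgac
Pfkp: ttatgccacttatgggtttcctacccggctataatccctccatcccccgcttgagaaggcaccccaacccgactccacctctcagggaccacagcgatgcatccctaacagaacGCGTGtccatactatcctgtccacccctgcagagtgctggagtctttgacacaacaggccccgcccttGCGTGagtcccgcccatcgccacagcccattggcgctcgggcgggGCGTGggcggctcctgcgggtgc
Higd1a: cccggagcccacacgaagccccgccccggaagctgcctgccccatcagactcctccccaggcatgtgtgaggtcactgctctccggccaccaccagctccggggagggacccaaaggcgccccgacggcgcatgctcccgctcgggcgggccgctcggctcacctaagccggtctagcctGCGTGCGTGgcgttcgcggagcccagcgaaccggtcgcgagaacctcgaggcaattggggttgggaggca
Ldha: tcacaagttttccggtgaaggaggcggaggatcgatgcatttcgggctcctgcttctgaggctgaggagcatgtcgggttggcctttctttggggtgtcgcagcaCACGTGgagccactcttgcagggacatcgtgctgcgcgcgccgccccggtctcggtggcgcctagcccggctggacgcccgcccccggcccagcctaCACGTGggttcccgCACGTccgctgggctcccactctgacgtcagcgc
Bnip3 held 5 matches, Ldha 5, Pfkp 3, Slc16a3 2 and Higd1a 2, where the palindrome CACGTG counts on each strand and matches may overlap. Of such runs, 39 of 50 for members (78.0%) held ACGTG or GCGTG, against 38.6% of 32851 for all genes. Over windows that run 50 bases past the start, 31 of the 34 members with a window (91.2%) held a match in at least 1 window, against 46.7% of 27025 genes. The members were chosen as glycolytic enzymes and known HIF targets, so their higher share is no test of the list. Some genes have more than 1 run, and base content was not matched. A match is a description of the letters and no sign that the site is bound. Ndrg1 had no window in the table.

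In SV40 MEFs with HMGN1, 16 of 32 members rose and 0 fell against the empty vector (limma, Benjamini-Hochberg adjusted p below 0.05 over all genes tested), where 29.4% of all genes tested were called (17.4% higher and 12.1% lower). The rises were 5 of 13 glycolytic enzymes and 11 of the 19 other members, and they were led by Bnip3, a mitochondrial protein that promotes mitophagy. Bnip3 was at 9.63, 9.43 and 10.25 on the HMGN1 arrays and at 7.75, 7.69 and 7.79 on the vector arrays. Every HMGN1 array lay above every vector array, and the HMGN1 arrays were spread more widely. The rise was 2.02 ± 0.17 (SE) on the log2 scale, 4.06-fold, with an adjusted p of 8.38e-09. The members' median change was 0.20, against -0.0022 over all genes tested.

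Pdk1, which keeps pyruvate from entering the citric acid cycle, was at 7.38, 7.14 and 7.75 with HMGN1 and at 6.06, 5.90 and 6.10 with the vector, a rise of 1.40 ± 0.17 (adjusted p = 1.56e-06). Ankrd37, an ankyrin repeat protein, rose by 1.26 ± 0.17 (adjusted p = 7.71e-06), and Aldoc, the aldolase best known from brain, by 1.26 ± 0.22 (adjusted p = 0.000178). Ndrg1, a stress-responsive gene, was at 7.67, 7.14 and 8.30 against 6.87, 6.86 and 6.73, a rise of 0.89 ± 0.20 (adjusted p = 0.00172) that was 0.59 without HMGN1 replicate 3. The histone demethylase Kdm3a rose by 0.78 ± 0.12 (adjusted p = 2.44e-05). In each of the 16 called members the HMGN1 and vector arrays did not overlap. Calls on 3 against 3 arrays favour such genes, so this is no further support. It was not counted over all called genes. Of the phosphofructokinases, which catalyse the committed step, Pfkl rose by 0.76, while Pfkm and Pfkp were not called. Ldha rose by 0.35, the triose phosphate isomerase Tpi1 by 0.26 and the pyruvate kinase Pkm by 0.19. Adm, which encodes the vasodilator peptide adrenomedullin, was called on its brightest probe set. Its vector group lay below the filter level (log2 3.63 in SV40 MEFs), so only a bound of 0.06 can be given, and its other probe set stood at -0.05 ± 0.14. Ero1a, also called higher, had 2 other probe sets, of which 1 had the same sign and 0 were called.

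The HMGN1 arrays were not alike. Replicate 3 was the highest of them for 28 of the 32 members and replicate 2 the lowest for 24. The median SD over members was 0.136 in this group against 0.054 in the vector group. Such ranks were not counted over all genes, so whether they are particular to the members is not known. The Gapdh control probe set at the 3' end was at 13.04, 13.04 and 13.12 with HMGN1 and at 12.92, 12.90 and 12.94 with the vector. The groups did not overlap, and Gapdh was not tested.

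**Figure D1:**
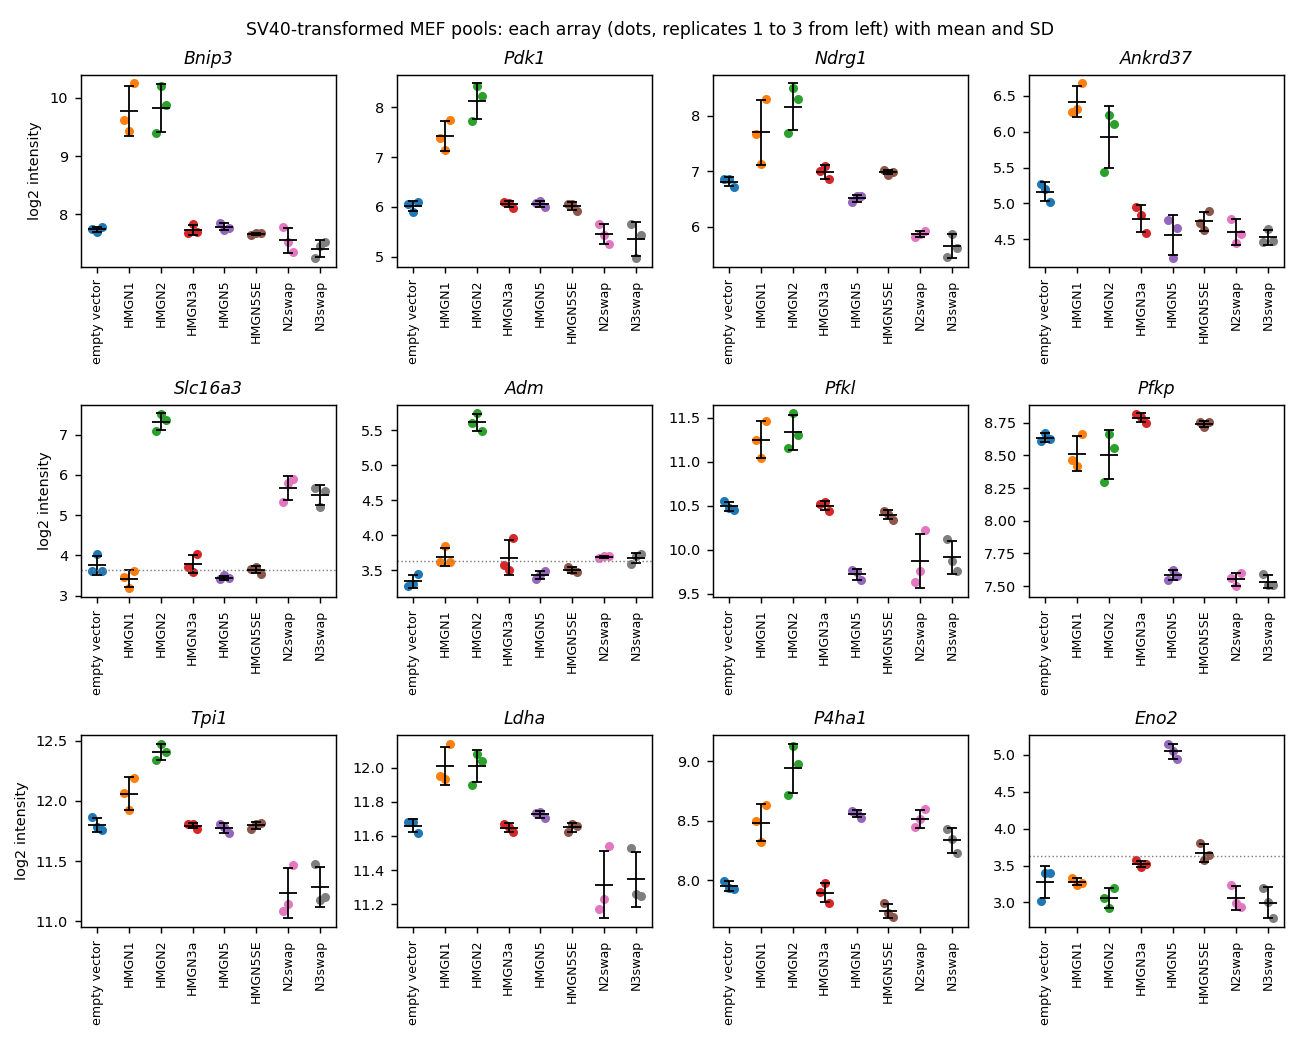
Log2 intensity (vertical axes) of 12 member genes on each of the 24 SV40 MEF arrays, by construct (horizontal axes); dots are arrays, the bar is the mean with its SD over 3 arrays, and the dotted line, where drawn, is the filter level of log2 3.63. The HMGN1 and HMGN2 arrays lie above the vector arrays for Bnip3, Pdk1 and Pfkl, and the HMGN5, HMGN1_N2swap and HMGN1_N3swap arrays lie below them for Pfkp.

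With HMGN2 in SV40 MEFs, 21 of 32 members rose and 1 fell, where 44.4% of all genes tested were called (18.8% higher and 25.6% lower). The rises were 7 of 13 glycolytic enzymes and 14 of the 19 other members, with a median change over members of 0.43 against -0.0605 over all genes. The lactate exporter Slc16a3 was at 7.10, 7.51 and 7.35 with HMGN2 against 3.62, 4.03 and 3.61 with the vector. It thus went from near the filter level to well above it on every array, a rise of 3.57 ± 0.16, 11.8-fold (adjusted p = 6.29e-14). With HMGN1 the same probe set was at 3.46, 3.18 and 3.61, and it was not called.

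Adm was at 5.60, 5.74 and 5.49 with HMGN2 and at 3.27, 3.31 and 3.45 with the vector, below the filter level, so it rose by at least 1.98 (adjusted p = 2.68e-14). Pdk1 was at 7.73, 8.42 and 8.23 and rose by 2.11 ± 0.17 (adjusted p = 1.19e-09), and Bnip3 was at 9.40, 10.21 and 9.87 and rose by 2.08 ± 0.17 (adjusted p = 2.04e-09). None of these HMGN2 arrays overlapped the vector arrays. Ndrg1 rose by 1.34 ± 0.20 (adjusted p = 1.02e-05) and P4ha1, a collagen prolyl hydroxylase, by 0.99 ± 0.09 (adjusted p = 8.24e-09). P4ha2, its relative, and Egln3 rose by 0.90 and 0.98. Among the enzymes, Pfkl rose by 0.84, Tpi1 by 0.61 and Pkm by 0.42. Of the 2 other Pfkl probe sets, only 1 had the same sign. Pgk1 was also called higher, but 0 of its 2 other probe sets had the same sign. The fall was that of Pfkm, the muscle phosphofructokinase (-0.34 ± 0.06, adjusted p = 0.000121). Hif1a, which is controlled mainly as a protein, rose by 0.27. Replicate 2 was the highest HMGN2 array for 25 of the 32 members and replicate 1 the lowest for 26, ranks that were not counted over all genes. Fibroblast markers moved in the same pool: the log2 of their summed intensity was 14.35 to 14.45 with HMGN2, 13.85 to 13.89 with HMGN1 and 13.75 to 13.79 with the vector. Their part in the members' changes was not tested.

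Set directly against each other, the HMGN2 and HMGN1 pools differed in 16 of 32 members, 11 higher and 5 lower with HMGN2, where 41.1% of all genes tested were called (14.9% higher and 26.2% lower). Slc16a3 was higher by at least 3.69 on the log2 scale, Adm by 1.92 ± 0.09 (adjusted p = 4.49e-13), Egln3 by 0.79 ± 0.11 (adjusted p = 6.23e-06) and Pdk1 by 0.70 ± 0.17 (adjusted p = 0.00163). P4ha2 was higher by 0.70 ± 0.09 and Pfkfb3, a kinase whose product drives phosphofructokinase, by 0.58 ± 0.13. The arrays of the 2 pools overlapped for Pdk1 and not for the other 5 of these genes. The members lower with HMGN2 were Aldoc (-0.75 ± 0.22), Kdm3a (-0.52 ± 0.12), Ankrd37 (-0.50 ± 0.17), Ero1a (-0.43 ± 0.10) and Pfkm (-0.28 ± 0.06). The Aldoc call, whose arrays overlapped, was lost at an adjusted p above 0.05 without HMGN1 replicate 1 (0.0533), HMGN1 replicate 3 (0.0559) or HMGN2 replicate 1 (0.0878), and the Ankrd37 call without HMGN1 replicate 3 (0.124) or HMGN2 replicate 1 (0.2) and in a fit of these groups alone (0.0656). Without HMGN2 replicate 1 the differences were -0.47 for Aldoc, -0.25 for Ankrd37 and -0.28 for Ero1a. Ero1a, the oxidase that makes disulphides in the endoplasmic reticulum, rested on its brightest probe set: with the mean of its probe sets the difference was 0.044 (adjusted p = 0.799). Bnip3 was not called, at 0.06 ± 0.17 (adjusted p = 0.815).

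With HMGN3a and HMGN5SE in SV40 MEFs, limma called 0 of 32 members each, where 0.0297% of all genes tested were called (0.0149% higher and 0.0149% lower) with HMGN3a and 0.0149% of all genes tested were called (0.00743% higher and 0.00743% lower) with HMGN5SE. At an unadjusted p below 0.05 there were 5 and 3 members, where 10.9% and 5.23% of all genes tested passed that threshold. With HMGN3a, whose members lay between -0.37 and 0.34, the smallest p-values were those of Adm, at 3.58, 3.50 and 3.97 against 3.27, 3.31 and 3.45 with the vector (adjusted p = 0.216), and of Pfkm (0.21 ± 0.06, adjusted p = 0.226). With HMGN5SE they were those of the neuronal enolase Eno2, at 3.80, 3.57 and 3.64 against 3.02, 3.41 and 3.40 (adjusted p = 0.568), and of Ankrd37 (-0.41 ± 0.17, adjusted p = 0.902). These misses do not show that the pools match the vector.

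With the construct labelled HMGN5, 4 of 32 members rose and 10 fell, where 41.5% of all genes tested were called (20.7% higher and 20.8% lower), so the called share of members (43.8%) was near the background. The largest fall was that of Pfkp, the platelet phosphofructokinase. It was at 7.55, 7.62 and 7.58 against 8.61, 8.68 and 8.62 with the vector, a change of -1.05 ± 0.08 (adjusted p = 1.11e-10). Arrays within each group lay close together and the groups did not overlap. Pfkl, which rose with HMGN1 and HMGN2, was at 9.77, 9.74 and 9.65 against 10.55, 10.48 and 10.45 and fell by 0.77 ± 0.13 (adjusted p = 3.3e-05). Ankrd37 stood at -0.60 ± 0.17 (adjusted p = 0.00552), Ero1a at -0.58 ± 0.10 (adjusted p = 5.65e-05), Pfkfb3 at -0.52 ± 0.13 (adjusted p = 0.00259) and the aldolase Aldoa at -0.34 ± 0.08 (adjusted p = 0.00194). The Ankrd37 call was lost without HMGN5 replicate 2 (0.0508), and Pfkfb3 stood at -0.28 with the mean of its probe sets.

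The rises were led by Eno2, at 5.15, 5.05 and 4.94 against 3.02, 3.41 and 3.40, a vector group below the filter level, so the rise was at least 1.41 (adjusted p = 9.86e-12). P4ha1 rose by 0.61 ± 0.09 (adjusted p = 6.39e-06), P4ha2 by 0.30 ± 0.09 (adjusted p = 0.0102) and Slc2a1 by 0.33 ± 0.11 (adjusted p = 0.0172), a call lost without vector replicate 1 (0.0945) or HMGN5 replicate 3 (0.0716). Bnip3 and Pdk1, which led with HMGN1, were at 7.74 to 7.86 and 6.00 to 6.12 against 7.69 to 7.79 and 5.90 to 6.10 with the vector and were not called. Fibroblast markers summed to 14.58 to 14.62 in this pool, above the vector's 13.75 to 13.79, and their part in the members' changes was not tested. Against HMGN5SE, 5 members were higher with HMGN5 and 9 lower, where 42.0% of all genes tested were called (19.8% higher and 22.2% lower), with Pfkp at -1.16 ± 0.08 (adjusted p = 2.16e-11) and Eno2 at 1.38 ± 0.11 (adjusted p = 7.79e-10). Against HMGN2, 2 were higher and 23 lower, where 49.3% of all genes tested were called (27.8% higher and 21.5% lower). Slc16a3 was lower there by at least 3.69, Adm by at least 1.98, and Pdk1, Bnip3, Ndrg1 and Pfkl stood at -2.06, -2.04, -1.65 and -1.61.

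**Figure D2:**
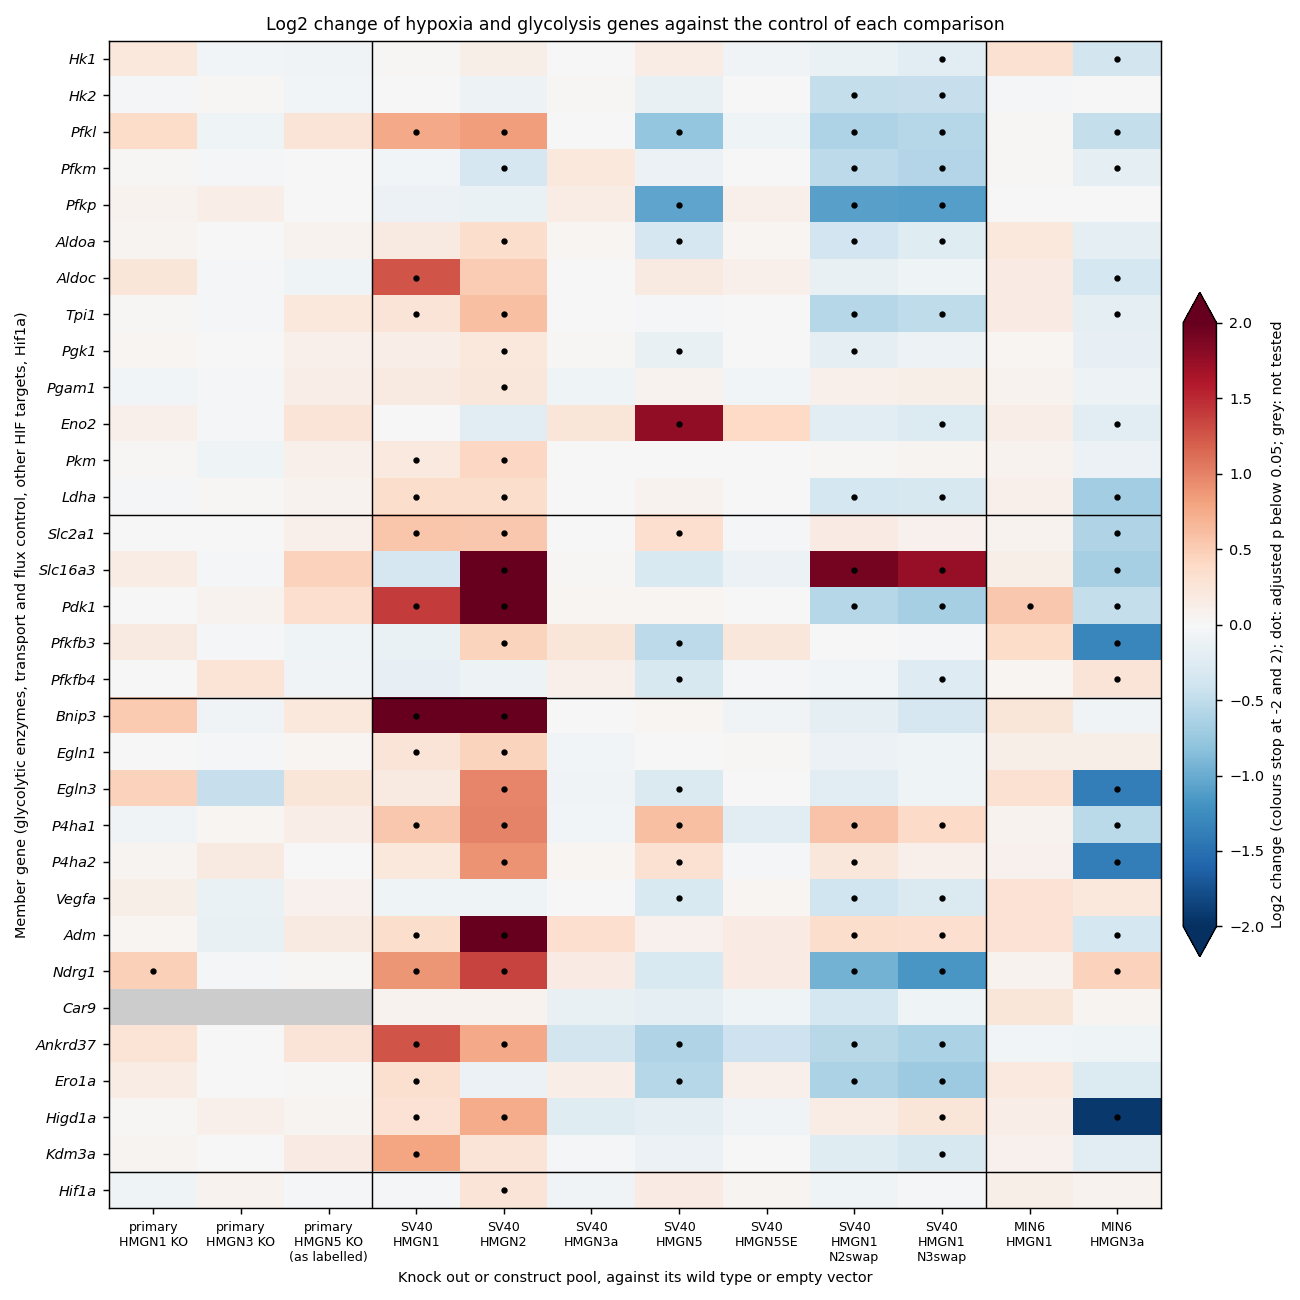
Log2 change (colour, red higher and blue lower, with colours stopping at 2 in either direction) of 32 member genes (rows, grouped by role) in 12 comparisons (columns), each knock out or construct set against its control; dots mark an adjusted p below 0.05 and the grey cells of Car9 were not tested. HMGN1 and HMGN2 in SV40 MEFs hold 16 and 21 rises, and HMGN3a in MIN6 cells holds 16 falls.

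The swap constructs, labelled as forms of HMGN1, had mostly falls. Against the vector, HMGN1_N2swap had 4 members higher and 13 lower of 32, where 37.1% of all genes tested were called (17.7% higher and 19.3% lower). HMGN1_N3swap had 4 higher and 16 lower, where 37.4% of all genes tested were called (17.4% higher and 20.0% lower). Of the glycolytic enzymes, 8 and 9 of 13 were called lower and 0 higher in either pool. Pfkp was at 7.56, 7.50 and 7.60 with HMGN1_N2swap and at 7.59, 7.51 and 7.51 with HMGN1_N3swap, changes of -1.09 ± 0.08 (adjusted p = 4.17e-10) and -1.10 ± 0.08 (adjusted p = 3.61e-10). Ndrg1 was at 5.81, 5.87 and 5.94 and at 5.46, 5.88 and 5.62, changes of -0.94 ± 0.20 (adjusted p = 0.000655) and -1.16 ± 0.20 (adjusted p = 8.03e-05). Every swap array lay below every vector array for these genes. Ero1a, Pfkl, Pdk1 and Tpi1 followed with HMGN1_N2swap at -0.63 ± 0.10, -0.62 ± 0.13, -0.57 ± 0.17 and -0.57 ± 0.09. With HMGN1_N3swap, Ero1a, Pdk1, Ankrd37 and Pfkm stood at -0.73 ± 0.10, -0.66 ± 0.17, -0.64 ± 0.17 and -0.58 ± 0.06. With HMGN1_N2swap, only 1 of the 2 other Pfkl probe sets had the same sign, and the mean of its probe sets stood at -0.38. With the mean of its probe sets Pdk1 stood at -1.04 with HMGN1_N3swap. Pfkl was at -0.58 ± 0.13 there, but another of its probe sets was called the other way, at 0.29 ± 0.10.

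Slc16a3 was at 5.33, 5.79 and 5.89 with HMGN1_N2swap and at 5.67, 5.21 and 5.60 with HMGN1_N3swap, all above the vector arrays and all below the HMGN2 arrays. Its rises were 1.92 ± 0.16 (adjusted p = 4.98e-09) and 1.74 ± 0.16 (adjusted p = 2.19e-08). P4ha1 rose by 0.57 ± 0.09 (adjusted p = 2.92e-05) and 0.38 ± 0.09 (adjusted p = 0.00159), the latter not called with the mean of its probe sets (0.0827). P4ha2 was called with HMGN1_N2swap (0.23 ± 0.09, adjusted p = 0.0496), a call lost when any of the 6 arrays was left out, with no filter (0.068), with the replicate number as a block (0.0569) and in a fit of these groups alone (0.0524). Higd1a was called with HMGN1_N3swap (0.25 ± 0.09, adjusted p = 0.0273), a call lost with the mean of its probe sets (0.0838) and without vector replicate 1 (0.0932), vector replicate 2 (0.0524), HMGN1_N3swap replicate 1 (0.0518) or HMGN1_N3swap replicate 2 (0.0807). Adm was called higher in each, with bounds of only 0.06 and 0.05. Its other probe set stood at -0.06 ± 0.14 and -0.03 ± 0.14, and neither call held with the mean of its probe sets (adjusted p = 0.161 and 0.131).

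The 3' minus 5' difference of the Actb control probe sets, a sign of RNA integrity, was 0.79, 0.74 and 0.39 with HMGN1_N2swap and 0.47, 0.77 and 0.58 with HMGN1_N3swap, against means of 0.09 to 0.28 in the other 6 groups. With that difference as a covariate, 11 and 13 members were called in place of 17 and 20, where 27.0% and 28.4% of all genes tested were called in place of 37.1% and 37.4%. Pfkp then stood at -0.98 and -1.01, Slc16a3 at 2.29 and 2.08 and Ndrg1 at -0.86 and -1.09, all still called. Tpi1 was still called with HMGN1_N2swap, but at -0.26 (adjusted p = 0.0379) in place of -0.57. Pfkl (-0.24, adjusted p = 0.253) and Pdk1 (-0.38, 0.269) were not called with HMGN1_N2swap, nor Pdk1 (-0.49, 0.123), Ankrd37 (-0.59, 0.0718) and Higd1a (0.20, 0.239) with HMGN1_N3swap, nor Adm with either (0.195 and 0.172).

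Against native HMGN1, the HMGN1_N2swap pool was higher in 1 member and lower in 21, where 46.1% of all genes tested were called (19.9% higher and 26.1% lower). The HMGN1_N3swap pool was higher in 1 and lower in 20, where 50.9% of all genes tested were called (22.8% higher and 28.2% lower). The member that was higher was Slc16a3, by at least 2.04 and at least 1.86. Bnip3 led the falls, at 7.78, 7.53 and 7.35 with HMGN1_N2swap and 7.25, 7.47 and 7.52 with HMGN1_N3swap, differences from HMGN1 of -2.21 ± 0.17 (adjusted p = 7.85e-10) and -2.35 ± 0.17 (adjusted p = 2.73e-10). Pdk1 differed by -1.97 ± 0.17 and -2.07 ± 0.17, Ndrg1 by -1.83 ± 0.20 and -2.05 ± 0.20 and Ankrd37 by -1.82 ± 0.17 and -1.89 ± 0.17. Aldoc differed by -1.41 ± 0.22 and -1.35 ± 0.22, and Pfkl by -1.38 ± 0.13 and -1.34 ± 0.13. For HMGN1_N3swap the Pfkl difference was -0.87 with the mean of its probe sets. Against HMGN2, the HMGN1_N2swap pool was lower in 29 of 32 members and higher in 0, where 50.2% of all genes tested were called (27.7% higher and 22.5% lower). Pdk1 differed there by -2.68 ± 0.17, Ndrg1 by -2.29 ± 0.20 and Slc16a3 by -1.65 ± 0.16. All SV40 comparisons share the vector, HMGN1, HMGN2 or HMGN5 arrays, so their counts are not independent of each other.

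**Figure D3:**
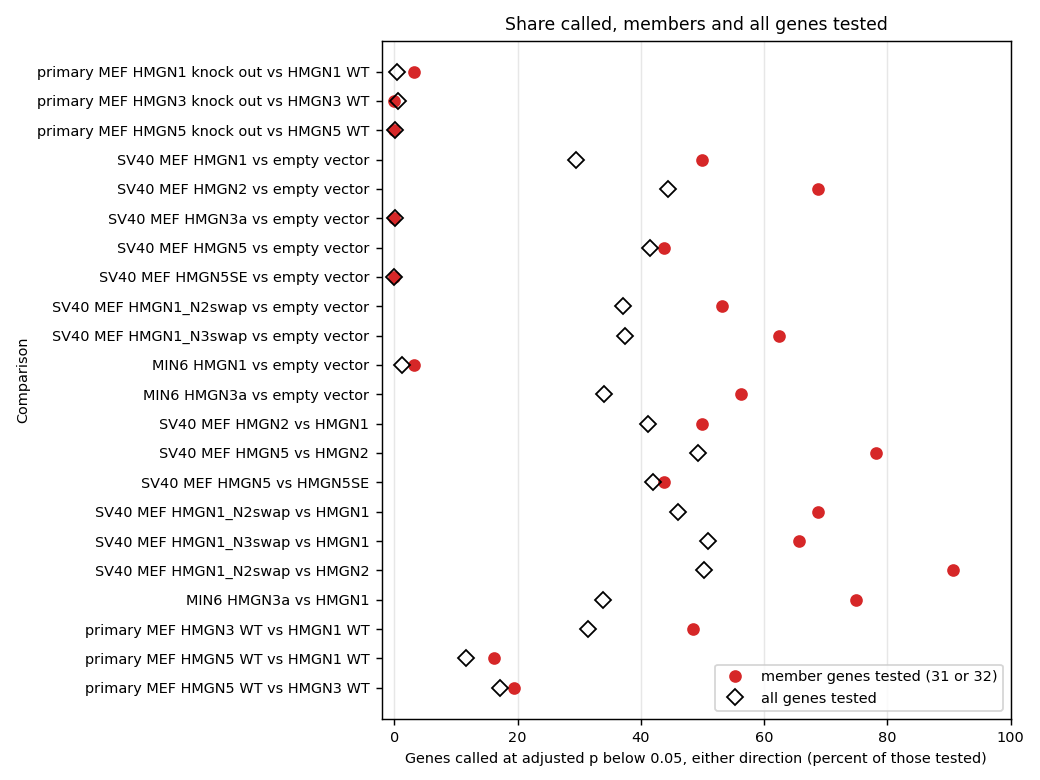
Share of genes called at an adjusted p below 0.05 in either direction (horizontal axis, percent of genes tested) in 22 comparisons (vertical axis), for the member genes and for all genes tested. With HMGN2 against the vector 68.8% of members and 44.4% of all genes were called, and with HMGN5 against the vector 43.8% and 41.5%.

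In MIN6 cells with HMGN3a, 16 of 32 members fell and 2 rose against the vector, where 34.1% of all genes tested were called (14.6% higher and 19.5% lower). The falls were 7 of 13 glycolytic enzymes and 9 of the 19 other members. Higd1a, a mitochondrial protein of the respiratory chain, was at 9.00, 9.31 and 9.11 with HMGN3a against 11.10, 11.08 and 11.03 with the vector. The groups lay well apart, with a log2 change of -1.93 ± 0.09 (adjusted p = 1.99e-07).

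Egln3 was at 5.57, 5.19 and 5.18 against 6.98, 6.57 and 6.57, a change of -1.39 ± 0.13 (adjusted p = 1.96e-05). P4ha2 was at 8.09, 8.44 and 8.32 against 9.73, 9.67 and 9.60 and changed by -1.38 ± 0.09 (adjusted p = 1.73e-06). Pfkfb3 was at 5.87, 6.01 and 6.17 against 7.49, 7.27 and 7.20 and changed by -1.31 ± 0.11 (adjusted p = 1.18e-05). Each of these genes was lower on every HMGN3a array than on every vector array, and with the mean of its probe sets Pfkfb3 changed by -0.77. Ldha was at 11.53, 11.48 and 11.50 against 12.29, 12.16 and 12.16 and changed by -0.70 ± 0.07 (adjusted p = 2.66e-05). Slc16a3 was at 9.13, 9.37 and 9.03 against 10.26, 9.64 and 9.61 and changed by -0.66 ± 0.16 (adjusted p = 0.00857). Neither overlapped its vector arrays. Over the MIN6 groups, Ldha lay at the 98.9th percentile of probe sets and Slc16a3 at the 90.4th, so neither RNA was low in this line. The remaining falls, from Slc2a1 at -0.60 to Pfkm at -0.17, took in P4ha1, Pdk1, Pfkl, Hk1, Adm, Aldoc, Eno2 and Tpi1.

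The rises were Ndrg1, at 10.24, 10.17 and 10.34 against 9.87, 9.78 and 9.70 (0.47 ± 0.07, adjusted p = 0.000343), and Pfkfb4, a relative of Pfkfb3, at 7.42, 7.45 and 7.44 against 7.27, 7.11 and 7.14 (0.27 ± 0.06, adjusted p = 0.00819). Pfkfb3 and Pfkfb4 were thus called in opposite directions. Bnip3 was not called, at 11.44, 11.46 and 11.56 against 11.72, 11.59 and 11.34, inside the vector's range. Beta cell markers summed to a log2 of 15.71 to 15.72 with HMGN3a and 15.68 to 15.73 with the vector. The brightest genes carry such a sum, so it does not show that each marker held. Slc2a2, a dimmer marker of this list, was lower with HMGN3a, as given below. Other endocrine markers summed to 11.23 to 11.41 against 12.28 to 12.35, and epithelial markers to 12.55 to 12.66 against 12.05 to 12.11. The part of these lists in the members' changes was not tested.

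With HMGN1 in MIN6 cells 1 of 32 members was called, where 1.16% of all genes tested were called (0.501% higher and 0.661% lower), and limma gave 10 members, all higher, at an unadjusted p below 0.05, a threshold that 17.1% of all genes tested passed (6.36% higher). Pdk1 was at 9.69, 9.59 and 9.41 against 9.15, 8.97 and 8.95, a rise of 0.54 ± 0.09 (adjusted p = 0.0232) with no overlap. The call was lost without vector replicate 2 (0.0783), vector replicate 3 (0.0687), HMGN1 replicate 1 (0.115) or HMGN1 replicate 2 (0.0863). Bnip3 was at 11.81, 11.93 and 11.62 against 11.72, 11.59 and 11.34 and overlapped. Whether this differs from the SV40 MEFs was not tested, since the cell types were processed apart. Set against HMGN1, the HMGN3a pool was lower in 22 members and higher in 2, where 33.9% of all genes tested were called (16.3% higher and 17.7% lower). Higd1a stood at -2.06 ± 0.09, Egln3 at -1.70 ± 0.13, Pfkfb3 at -1.67 ± 0.11 and P4ha2 at -1.47 ± 0.09, and Pdk1 and Ldha at -1.02 ± 0.09 and -0.81 ± 0.07. Ndrg1 and Pfkfb4 were higher, by 0.40 ± 0.07 and 0.23 ± 0.06, and the Pfkfb4 call was lost without HMGN1 replicate 3 (0.0769).

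**Figure D4:**
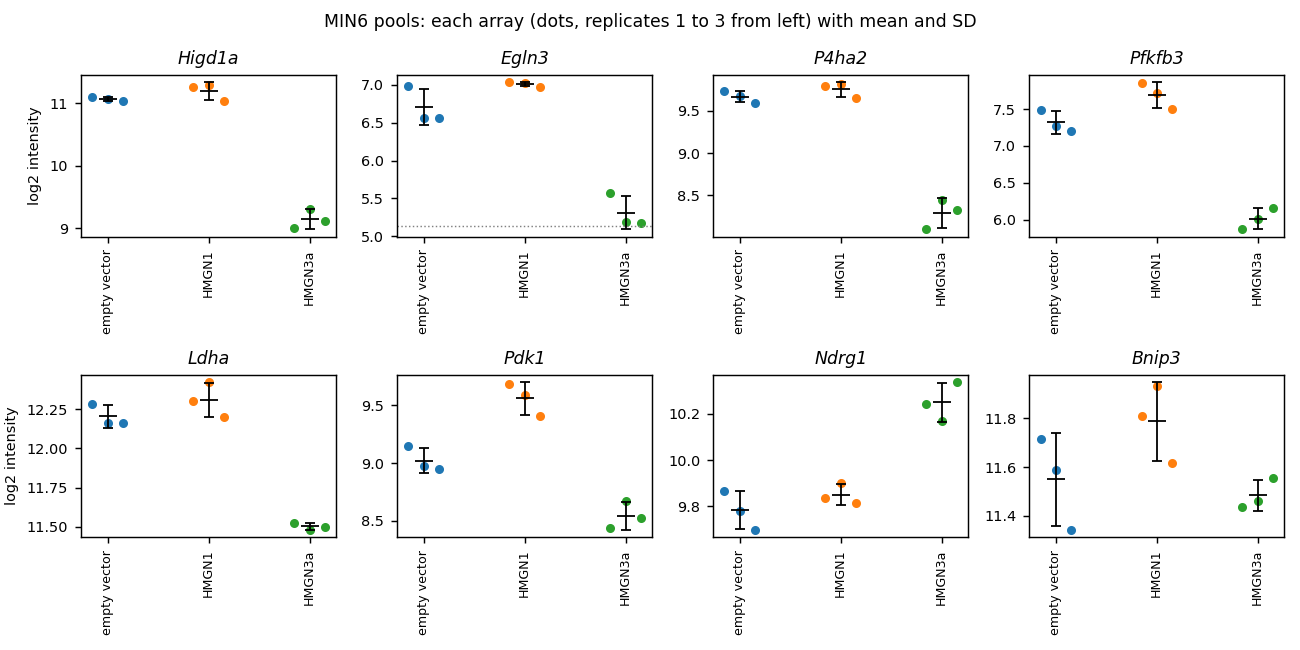
Log2 intensity (vertical axes) of 8 member genes on each of the 9 MIN6 arrays, by construct (horizontal axes); dots are arrays, the bar is the mean with its SD over 3 arrays, and the dotted line, where drawn, is the filter level of log2 5.14. The 3 HMGN3a arrays lie below all vector arrays for Higd1a, Egln3, P4ha2, Pfkfb3, Ldha and Pdk1 and above them for Ndrg1.

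In primary MEFs the knock outs changed few members. Of 31 members, limma called 1 in the HMGN1 knock out, where 0.439% of all genes tested were called (0.0878% higher and 0.351% lower). It called 0 in the HMGN3 knock out, where 0.585% of all genes tested were called (0.483% higher and 0.102% lower), and 0 in the arrays labelled HMGN5 knock out, where 0.0732% of all genes tested were called (0.0366% higher and 0.0366% lower). At an unadjusted p below 0.05 there were 6, 2 and 5 members, all of them higher, where 15.5%, 8.48% and 5.59% of all genes tested passed that threshold (5.25%, 3.83% and 2.46% higher). The called member was Ndrg1, at 6.53, 6.98 and 6.69 in the HMGN1 knock out and at 6.21, 6.25 and 6.29 in its wild type, a rise of 0.48 ± 0.10 (adjusted p = 0.0438). The groups did not overlap. The call was lost with no filter (0.0532), with the mean of its probe sets (0.087) and in a fit of these groups alone (0.192), and without HMGN1 knock out replicate 2 (0.0786), HMGN1 knock out replicate 3 (0.0753), HMGN1 wild type replicate 1 (0.0896), HMGN1 wild type replicate 2 (0.105) or HMGN1 wild type replicate 3 (0.135).

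Bnip3 was at 6.57, 7.85 and 7.28 in the HMGN1 knock out against 6.57, 6.83 and 6.72 in the wild type (0.53 ± 0.22, adjusted p = 0.266). Egln3 was at 4.02, 5.85 and 5.37 against 4.19, 5.01 and 4.65, and Ankrd37 at 2.82, 4.60 and 3.95 against 3.60, 3.35 and 3.59. These groups overlapped, and knock out replicate 2 was the highest of its group for 27 of 31 members and replicate 1 the lowest for 25. Such ranks were not counted over all genes. The HMGN1 knock out arrays also differed in Y-linked signal. With 3 arrays, that signal cannot be told apart from other differences between the replicates. With that signal as a covariate 2 members were called, among them Ndrg1 (0.67, adjusted p = 2.91e-05), where 0.6% of all genes tested were called. Without replicate 1 the count was 3, where the share of all genes called is not given here.

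In the HMGN3 knock out the smallest p-values were those of Pfkfb4, at 5.25, 5.68 and 5.38 against 5.17, 5.14 and 5.18 (0.27 ± 0.11, adjusted p = 0.517), and of P4ha2 (0.18 ± 0.08, adjusted p = 0.566). In the arrays labelled HMGN5 knock out they were those of Slc16a3, at 3.19, 3.14 and 3.29 against 2.75, 2.64 and 2.83 (0.47 ± 0.11, adjusted p = 0.245), and of Tpi1 (0.22 ± 0.06, adjusted p = 0.405). Tests of the difference between knock outs called 0 members each with limma, where 0.505% of all genes tested were called (0.117% higher and 0.388% lower) for HMGN1 minus HMGN3, 0.161% of all genes tested were called (0.0293% higher and 0.132% lower) for HMGN1 minus HMGN5 and 0.424% of all genes tested were called (0.293% higher and 0.132% lower) for HMGN3 minus HMGN5. At an unadjusted p below 0.05 there were 3, 4 and 4 members, where 12.2%, 11.6% and 7.67% of all genes tested passed that threshold. For HMGN1 minus HMGN3 the smallest p-values were those of Ndrg1 (0.51 ± 0.14, adjusted p = 0.124) and the hexokinase Hk1 (0.27 ± 0.09, adjusted p = 0.204), and for HMGN1 minus HMGN5 those of Ndrg1 (0.46 ± 0.14, adjusted p = 0.212) and Hk1 (0.28 ± 0.09, adjusted p = 0.226). With the Y-linked signal as a covariate, Ndrg1 (0.75, adjusted p = 0.000337) and Hk1 (0.38, 0.0371) were called for HMGN1 minus HMGN3 and Ndrg1 (0.88, 0.000543) for HMGN1 minus HMGN5, where 1.72% and 0.527% of all genes tested were called. These covariate fits lean on the same HMGN1 knock out arrays. For HMGN3 minus HMGN5 the smallest p-values were those of Slc16a3 (-0.51 ± 0.16, adjusted p = 0.294) and Tpi1 (-0.25 ± 0.09, adjusted p = 0.427).

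The wild type groups differed among themselves in more members. Against the HMGN1 wild type, the HMGN3 wild type was lower in 15 of 31 members and higher in 0, where 31.5% of all genes tested were called (11.1% higher and 20.4% lower). The HMGN5 wild type was lower in 5 and higher in 0, where 11.7% of all genes tested were called (4.73% higher and 7.02% lower). Hk2, the inducible hexokinase, was at 6.91, 7.01 and 6.93 in the HMGN3 wild type against 7.75, 7.82 and 7.81 in the HMGN1 wild type (-0.85 ± 0.10, adjusted p = 1.85e-05). Pfkp was at 5.85, 5.80 and 5.74 against 6.48, 6.67 and 6.67 (-0.81 ± 0.08, adjusted p = 3.11e-06), and Egln3 at 3.14, 3.01 and 3.27 against 4.19, 5.01 and 4.65 (-1.48 ± 0.32, adjusted p = 0.00288). None of these groups overlapped, and with the mean of their probe sets Pfkp and Egln3 stood at -0.43 and -0.96. Bnip3, Ndrg1 and P4ha2 stood at -0.70 ± 0.22, -0.54 ± 0.10 and -0.46 ± 0.08, and the Bnip3 call was lost without HMGN1 wild type replicate 2 (0.0729), HMGN1 wild type replicate 3 (0.0625) or HMGN3 wild type replicate 3 (0.0907). The HMGN5 wild type had Egln3 at -1.39 ± 0.32, Ndrg1 at -0.53 ± 0.10, P4ha2 at -0.28 ± 0.08, Kdm3a at -0.27 ± 0.06 and Slc2a1 at -0.26 ± 0.06. Its count was 3 without HMGN1 wild type replicate 2, where the share of all genes called is not given here. Egln3 was lost without HMGN1 wild type replicate 2 (0.0516). P4ha2 was lost without HMGN1 wild type replicate 2 (0.109) or HMGN1 wild type replicate 3 (0.147). It was also lost without HMGN5 wild type replicate 1 (0.0716), HMGN5 wild type replicate 2 (0.0593) or HMGN5 wild type replicate 3 (0.127).

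The HMGN1 wild type carried almost no Y-linked signal and the other wild types a strong one. With that signal as a covariate 5 members were called for HMGN3 and 0 for HMGN5, where 17.6% and 4.12% of all genes tested were called in place of 31.5% and 11.7%. Hk2 (-0.58, adjusted p = 0.0077) and Pfkp (-0.70, 0.00145) were still called for HMGN3. Egln3 (-0.46, 0.455), Bnip3 (-0.35, 0.518), Ndrg1 (-0.14, 0.247) and P4ha2 (-0.36, 0.0626) were not. The signal varied less within each wild type group than between the HMGN1 wild type and the others. The covariate's slope thus leans on other arrays, such as those of the HMGN1 knock out, which differed widely in it. This fit can hardly tell the signal from the wild type group. Between the HMGN5 and HMGN3 wild types, 5 members were higher and 1 lower in HMGN5, where 17.2% of all genes tested were called (9.92% higher and 7.32% lower). They were led by Hk2 at 0.70 ± 0.10 and Pfkp at 0.57 ± 0.08, followed by Slc16a3 at 0.44 ± 0.11, a call lost without HMGN3 wild type replicate 1 (0.0616) or HMGN5 wild type replicate 3 (0.062). The count was 3 without HMGN5 wild type replicate 3, where the share of all genes called is not given here. Macrophage markers summed to 8.45 to 8.59 in the HMGN1 wild type, 9.76 to 9.89 in the HMGN3 wild type and 8.70 to 9.59 in the HMGN5 wild type, and their part was not tested.

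**Figure D5:**
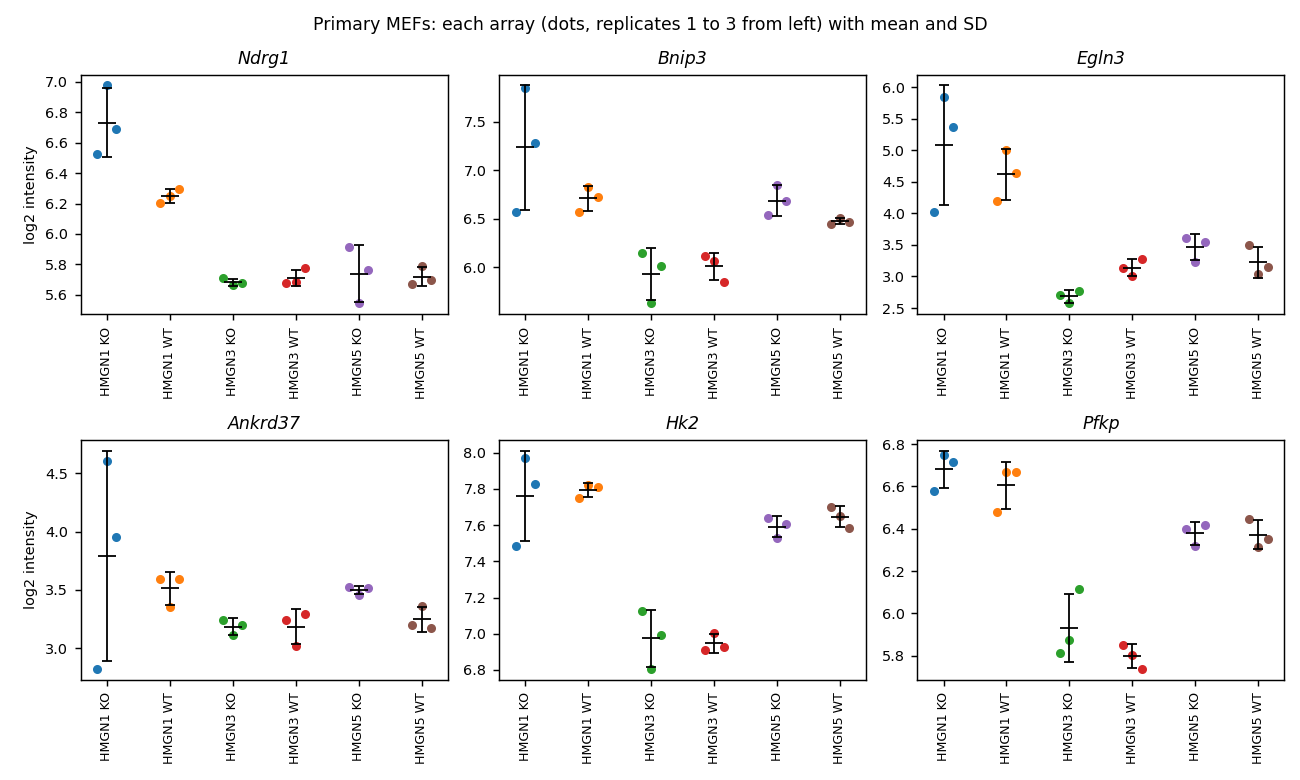
Log2 intensity (vertical axes) of 6 member genes on each of the 18 primary MEF arrays, by group (horizontal axes); dots are arrays, from left to right replicates 1 to 3, and the bar is the mean with its SD. The HMGN1 knock out arrays reach from 4.02 to 5.85 for Egln3, and the HMGN3 wild type arrays lie below the HMGN1 wild type arrays for Hk2 and Pfkp.

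Genes of related pathways, listed by name, were counted beside the members. In SV40 MEFs the shares of all genes tested that were called against the vector were 29.4% with HMGN1, 44.4% with HMGN2, 41.5% with HMGN5 and 37.1% and 37.4% with the swap constructs. Of 28 other HIF targets tested in SV40 MEFs, 12 rose and 3 fell with HMGN1, 17 rose and 2 fell with HMGN2, 8 rose and 8 fell with HMGN5, and 5 rose and 9 fell with each swap construct. The called share of the list was 53.6% with HMGN1, 67.9% with HMGN2 and 57.1% with HMGN5, and 14 of 28 were called with each swap construct. With HMGN2, Lox, a collagen cross-linking enzyme, rose by at least 4.05, and the circadian repressor Bhlhe40 by 2.01 ± 0.12 (adjusted p = 2.31e-11). With HMGN5, Lox rose by at least 5.66 and the adenylate kinase Ak4 fell by at least 3.29. With HMGN1, Ak4 (0.84 ± 0.22), Bhlhe40 (0.73 ± 0.12) and the collagen lysyl hydroxylase Plod2 (0.57 ± 0.11) rose.

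Of 12 HIF pathway components, 2 rose and 1 fell with HMGN1, and 3 rose and 0 fell with HMGN2, in each case 25.0% of the list and below the share over all genes. Vhl, which presents HIF for breakdown, rose with HMGN1 (0.57 ± 0.08) and HMGN2 (0.53 ± 0.08). Cited2, a competitor of HIF for its coactivator, fell with HMGN1 (-0.37 ± 0.08) and rose with HMGN2 (0.62 ± 0.08). Of 22 other glycolysis and pyruvate genes, 3 rose and 6 fell with HMGN1 and 5 rose and 7 fell with HMGN2 (40.9% and 54.5% of the list). Pgm1, which links glycogen to glycolysis, rose with each (0.89 ± 0.13 and 1.32 ± 0.13). Of 16 citric acid cycle enzymes, 0 rose and 4 fell with HMGN1, 2 rose and 8 fell with HMGN2, and 2 rose and 7 fell with HMGN5 (25.0%, 62.5% and 56.2% of the list), a share below that over all genes with HMGN1. Suclg2, a succinyl-CoA ligase subunit, stood at -0.23 ± 0.06, -0.46 ± 0.06 and -0.43 ± 0.06. Of 9 gluconeogenesis and pentose phosphate genes, 1 rose and 1 fell with HMGN1 (22.2%), the fall being Pck2, a mitochondrial enzyme of gluconeogenesis (9.40 ± 0.13 against 10.40 ± 0.11 with the vector, SD, n = 3, adjusted p = 2.6e-10). In MIN6 cells with HMGN3a, 4 of 27 other HIF targets rose and 8 fell (44.4% of the list, against 34.1% of all genes), among them the annexin Anxa2 (-2.16 ± 0.14). The beta cell glucose transporter Slc2a2 stood at -1.26 ± 0.10 with HMGN3a and -0.81 ± 0.10 with HMGN1. In the HMGN3 knock out the HIF subunit Epas1 rose (0.94 ± 0.19, adjusted p = 0.0319), the only call among these lists in the 3 knock outs.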

How the data were processed

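Values are the intensities of 45101 probe sets that the authors deposited, with RMA as the method per the submitters' processing notes. They are linear intensities, which were taken to log2 here. Cell types were analysed apart, since their array medians differ: 5.47 to 5.93 for primary MEFs, 18.7 to 19.6 for the SV40 line, 55.5 to 57.6 for MIN6. The number of arrays, 3 a group, limits the precision.

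Of the probe sets, 34945 had 1 gene symbol in the platform annotation, 932 several and 9160 none, and 64 were controls. The brightest probe set stood for a gene, and genes below the 40th percentile in every group mean were left out (log2 1.99, 3.63 and 5.14), which left 13669, 13461 and 13169 genes. Where 1 group lay below that level, the change is given as a bound against it. Groups were compared with limma 3.58.1 in R 4.3.3 (lmFit, contrasts.fit, eBayes), with 1 mean per group over all arrays of a cell type and Benjamini-Hochberg adjustment over all genes tested. SE is that of the fit and all tests are two-sided.

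Members and lists were chosen with earlier results of these data known. Full statistics go to at most the 6 largest rises and 6 largest falls called in a comparison, or, with none called, values of the 2 smallest p-values, and at most 4 genes of a pathway list are named. On simulated data, 90%, 90% and 86% of genes changed 1.5-fold were recovered in the HMGN1 comparison of primary MEFs, SV40 MEFs and MIN6 cells. The simulated noise was independent between arrays, with 1 spread per gene over all groups. The HMGN1 knock out arrays spread more widely (median SD over members 0.15, against 0.079 in their wild type). The 90% may therefore not hold for that knock out. The alternatives were no filter, the mean of the probe sets, quantile normalization, an offset of 16, a replicate block, only the compared groups, covariates for Y-linked signal and the Actb difference, and leaving out each array.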

Additional observations from a re-analysis of the deposited data

How the results depend on the processing

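Of 142 named changes, quantile normalization and an offset of 16 ended no call, no filter ended 2, the mean of the probe sets 5, and fitting only the compared groups 4. The mean of the probe sets turned 1, Ero1a between HMGN2 and HMGN1, to 0.044. Called changes moved by over 1.5 times for 24 with the offset, 16 with the mean of the probe sets and 4 when an array was left out. In the HMGN1 knock out 0 members were called with no filter, with the mean of the probe sets or with only the compared groups, and 2 with the Y-linked covariate. That covariate left 5 members for the HMGN3 against the HMGN1 wild type and 0 for HMGN5, and gave 2 and 1 for the HMGN1 knock out minus HMGN3 and minus HMGN5. The Actb covariate left 11 members for HMGN1_N2swap and 13 for HMGN1_N3swap, and the mean of the probe sets gave 2 for HMGN1 in MIN6. The cause was not tested. Apart from the covariates, the share of all genes called under these settings is not given here.

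Leaving out each array gave 0 to 3 members for the HMGN1 knock out (3 without knock out replicate 1, 0 without any of the other 5), 0 to 1 for HMGN1 in MIN6, 3 to 6 for the HMGN5 against the HMGN1 wild type, 3 to 6 for the HMGN5 against the HMGN3 wild type and 0 to 1 for HMGN1 minus HMGN3 (1 without HMGN1 knock out replicate 1). All other counts stayed within 1.5 times, such as 11 to 16 for HMGN1 and 22 to 25 for HMGN2 in SV40 MEFs. The share of all genes called with an array left out is not given here, so these counts lack their background.

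In no comparison did the deviations of all 3 same-numbered pairs correlate above 0.1 (the lowest of the 3 ran from -0.391 to 0.082), so the numbers were not taken to pair the arrays. With the replicate block 0 members were called in the HMGN1 knock out, 16 with HMGN1 and 22 with HMGN2 in SV40 MEFs and 18 with HMGN3a in MIN6. Of the 142 named changes, which include some not called, 3 lost their call. The share of all genes called with the block is not given here.

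Over all genes, quantile normalization moved the higher share of calls in the HMGN1 knock out from 20.0% to 43.8%, and from 23.2% to 39.0% and 18.2% to 30.0% in its differences from the HMGN3 and HMGN5 knock outs.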
